A study of Mus musculus with 4 samples.

Results

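A total of 12786 peaks of histone H3 acetylated at lysine 27 (H3K27ac) stood in the replicated peak list of mouse hippocampus and overlapped, by even 1 bp, no peak of either tissue pool's own list. They were 14.4% of the 88930 replicated peaks and covered 5.67 Mb. Since they were selected on where the peak calls of these data fell, their lack of a pool peak, and the low signal and small width that go with it, are descriptions and were given no test. The other 76144 replicated peaks comprised 48021 that overlapped a peak of both pools, 26791 that overlapped a pool C peak only and 1332 that overlapped a pool D peak only.

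The tissue was labelled as layer of hippocampus, without naming the layer, from male B6CASTF1/J mice aged 2 months, which are first-generation hybrids of the C57BL/6J and CAST/EiJ strains. Chromatin immunoprecipitation with sequencing for H3K27ac was done on 2 pools, C and D, of 7 biosamples each, and each pool was sequenced as 2 technical replicates, giving 4 samples in 1 group with no contrast between conditions. The authors deposited 4 lists: the replicated list from both pools, a list of 102643 peaks from both pools' reads together (the joint list), a list of 94836 peaks for pool C and a list of 63623 peaks for pool D. No read totals were in the files, so the depth behind a peak is unknown, and a region without a pool peak is one where none was called at that depth. The lists give 1 value per peak and none per sample, so no spread between samples could be given for any value below. Of the markers chosen for the tissue, 20 of 20 excitatory neuron genes, 15 of 16 dentate granule cell genes and 14 of 16 CA field pyramidal cell genes had a replicated promoter peak, against 0 of 28 Hox genes. Astrocyte, oligodendrocyte and housekeeping genes had one at 20 of 20 each. Counts were lower for interneuron (11 of 22), microglia (13 of 20), endothelial and mural (13 of 20) and choroid plexus and ependymal genes (5 of 12). Oligodendrocyte precursor genes had 7 of 12 and neural stem and newborn neuron genes 9 of 15. Liver, skeletal muscle and male germ cell genes had 5, 6 and 4 of 16. Over all protein-coding genes the share was 61.6%.

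H3K27ac is placed on nucleosomes by the acetyltransferases p300 and CBP and marks active promoters and active enhancers. At strong sites it spreads over several nucleosomes on both sides of a nucleosome-depleted core, so strong peaks are wide. In hippocampal tissue the mark is a sum over pyramidal and granule neurons, interneurons, glia and vascular cells, so few cells with strong acetylation and many cells with weak acetylation cannot be told apart at a weak peak.

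The sequences of 6 of these peaks are shown because they are the strongest in their place, 1 inside and 1 outside the joint list, among windows with no bases in a UTR. Each is the 200 bp around the summit in build GRCm38 (mm10), from RefSeq's genome, and capitals mark matches on either strand to the 14 motifs described further below.
Gm6475 start site, nearest coding gene Tiam2, in the joint list, chr17:3314085-3314284, plus strand: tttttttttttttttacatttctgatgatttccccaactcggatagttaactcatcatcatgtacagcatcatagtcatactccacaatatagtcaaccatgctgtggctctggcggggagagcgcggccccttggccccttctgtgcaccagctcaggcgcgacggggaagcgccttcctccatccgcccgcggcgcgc
Fgfr1op promoter, outside the joint list, chr17:8165600-8165799, plus strand: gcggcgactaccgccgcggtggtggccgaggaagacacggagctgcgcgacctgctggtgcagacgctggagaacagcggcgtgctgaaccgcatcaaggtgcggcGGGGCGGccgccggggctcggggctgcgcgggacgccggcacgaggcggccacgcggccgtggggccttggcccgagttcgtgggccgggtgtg
Sult2b1 intron near Lmtk3, in the joint list, chr7:45781496-45781695, plus strand: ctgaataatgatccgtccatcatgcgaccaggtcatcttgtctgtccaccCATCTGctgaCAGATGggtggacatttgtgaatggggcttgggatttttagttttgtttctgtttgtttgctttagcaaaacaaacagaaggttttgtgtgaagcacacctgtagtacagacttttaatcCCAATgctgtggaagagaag
Clasp2 intron, outside the joint list, chr9:113867578-113867777, plus strand: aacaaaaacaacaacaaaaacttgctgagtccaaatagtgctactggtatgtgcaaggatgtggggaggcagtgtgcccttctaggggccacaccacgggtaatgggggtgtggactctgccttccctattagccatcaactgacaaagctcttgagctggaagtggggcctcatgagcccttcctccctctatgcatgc
intergenic, nearest coding gene Prkcb, in the joint list, chr7:122643546-122643745, plus strand: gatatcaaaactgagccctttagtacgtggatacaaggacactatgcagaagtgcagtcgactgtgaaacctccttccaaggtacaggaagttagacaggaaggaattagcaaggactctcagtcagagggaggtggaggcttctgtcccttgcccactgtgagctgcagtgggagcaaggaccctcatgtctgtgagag
intergenic, nearest coding gene Snrpn, outside the joint list, chr7:60391590-60391789, plus strand: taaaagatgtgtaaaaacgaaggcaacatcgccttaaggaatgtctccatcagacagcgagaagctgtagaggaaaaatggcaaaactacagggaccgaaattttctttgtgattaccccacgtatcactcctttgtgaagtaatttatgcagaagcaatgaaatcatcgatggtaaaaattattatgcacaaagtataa

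These 6 windows ranged from 37% to 76.5% G or C, and 3 of them were close in that content only. The Fgfr1op window, at the promoter of a centrosomal protein gene, was 76.5% G or C with an observed over expected CpG ratio of 1.10, and its capitals mark a GC box. The Gm6475, Clasp2 and Prkcb windows were 53.5%, 52% and 51% G or C, with CpG ratios of 0.932, 0.074 and 0.158, and the first begins in a run of T. The Lmtk3 window was 43% G or C. The lowest was the window with Snrpn as nearest coding gene, whose TSS is 251471 bp away. The Lmtk3 window also holds both orientations of the E-box CAGATG, a few bases apart, and a CCAAT box. None of the 14 motifs was found in the windows of Gm6475, Clasp2, Prkcb and Snrpn.

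The peaks in neither pool list were narrow and weak. Their median width was 396 bp, with 90% of them between 233 and 813 bp and the widest at 1787 bp. The median was 1103 bp for the other replicated peaks, and was 1515 bp for those with a peak in both pools, 692 bp for those with pool C only and 505 bp for those with pool D only. The deposited signal, the authors' own value per peak, with a scale the labels do not state, had a median of 2.89 and ran from 1.53 to 6.25. Medians were 4.67 for the other replicated peaks, 6.36 with both pools, 3.499 with pool C only and 3.24 with pool D only. The deposited −log10 q had a median of 4.67 against 15.3, and was under 5 for 54.0% of the peaks in neither list against 5.23% of the others. The peaks in neither list took 709 distinct signal values, and 868 of them shared the same value of 2.89. Distinct values were not counted for the other replicated peaks.

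**Figure D1:**
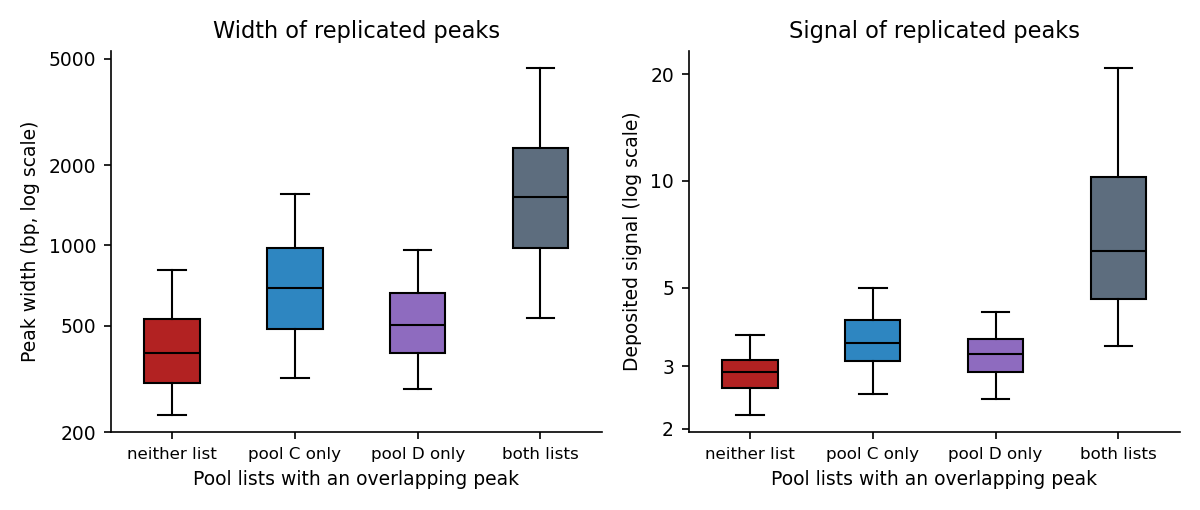
Width in bp (left) and deposited signal (right), both on log axes, of replicated peaks by the pool lists that hold an overlapping peak; the line is the median, the box spans the middle 50% and the whiskers the 5th to 95th percentile. Peaks in neither list had the lowest medians, 396 bp and 2.89, and peaks in both lists the highest, 1515 bp and 6.36.

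Width and signal each separated these peaks from the rest. In the lowest of 4 signal bands, from 1.28 to 3.24, 10017 of 20925 replicated peaks (47.9%) were in neither pool list. The share was 11.5% in the next band (2696 of 23488), 0.329% in the third, from 4.28 to 6.70 (73 of 22180), and 0 of 22337 in the highest. Within the lowest band the share fell with width, from 76.6% of peaks under 400 bp to 45.3% from 400 to under 800 bp, 13.0% from 800 to under 1600 bp and 0.215% at 1600 bp or more. Width therefore separated them also at like signal: in the lowest band the median was 401 bp for peaks in neither list and 669.5 bp for the others, at median signals of 2.78 and 2.90.

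**Figure D2:**
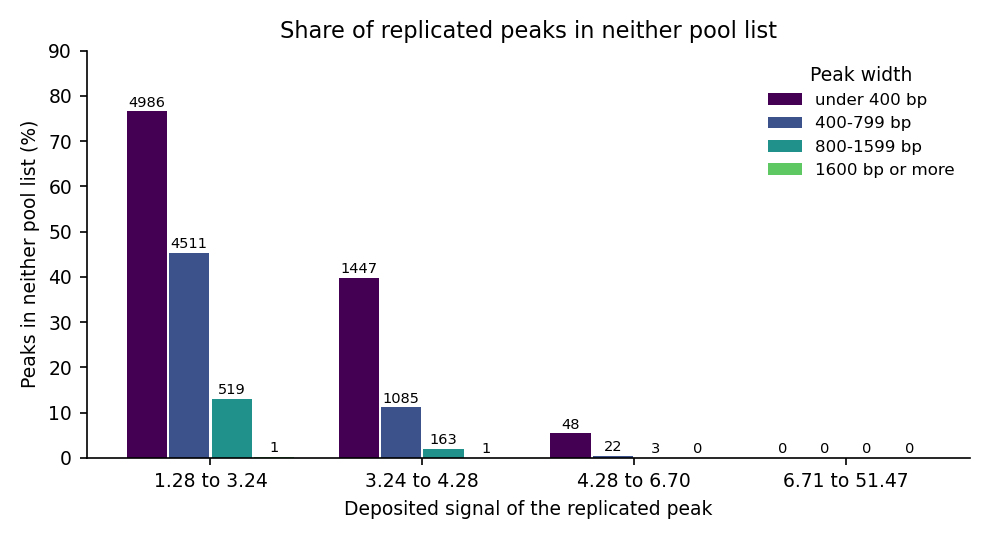
Share of replicated peaks in neither pool list (vertical axis, %) by band of deposited signal (horizontal axis) and by peak width (colours), with the number of such peaks above each bar. The tallest bar, 76.6%, is the narrowest peaks of the weakest band, and no peak of the strongest band was in neither list.

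The joint list held 7264 of the 12786 peaks (56.8%, 95% Wilson interval 56.0 to 57.7), each with exactly the same start and end. The same start and end were found for all 82099 replicated peaks in the joint list, so this was not particular to these peaks. The joint list held 99.96% of replicated peaks with both pools, 95.5% with pool C only and 93.2% with pool D only. Conversely, 5522 of the 6831 replicated peaks outside the joint list (80.8%) were in neither pool list, so these 5522 overlapped no peak of the other 3 deposited lists. They were narrower and weaker than the 7264, with medians of 358 against 433 bp and of 2.78 against 3.01 in signal. Their median gap to the nearest joint peak was 980.5 bp. The split made no difference to place: 8.58% of the 5522 and 8.60% of the 7264 lay at promoters, and 62.4% and 61.6% in introns.

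Many of these peaks lay close to a pool peak without touching it. The median gap to the nearest pool C peak was 1204.5 bp (95% interval of the median 1131 to 1290), with the middle 50% between 259 and 6738 bp. The median gap to the nearest pool D peak was 5242.5 bp (5006 to 5486), in a list with fewer peaks. A pool C peak lay within 1 kb of 47.2% of them and within 10 kb of 80.5%, and a pool D peak within 1 kb of 21.4% and within 10 kb of 63.0%. The nearest pool peak belonged to pool C for 90.5%. Gaps of replicated peaks with pool D only to pool C were similar, with a median of 1265.5 bp, and gaps of those with pool C only to pool D had a median of 3826 bp.

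**Figure D3:**
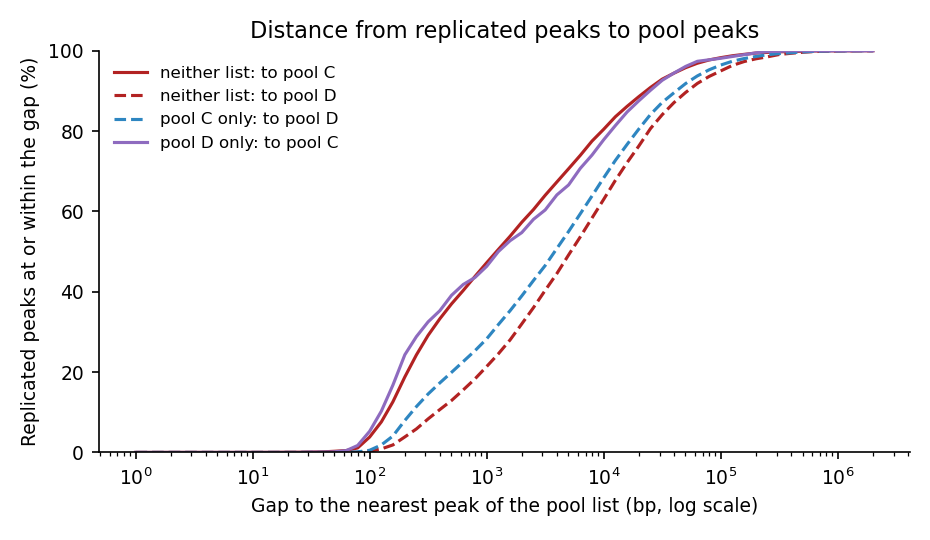
Cumulative share of replicated peaks (vertical axis, %) by the gap in bp to the nearest peak of a pool list (horizontal axis, log scale); colours give the class of replicated peak, solid lines gaps to pool C and dashed lines gaps to pool D. The curve of peaks in neither list reaches 47.2% at 1 kb for pool C and 21.4% for pool D.

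By the nearer of the pool lists, 6179 peaks (48.3%) lay within 1 kb of a pool peak, 4192 (32.8%) between 1 and 10 kb, and 2415 (18.9%) farther than 10 kb. Signal and width barely differed among these groups, with medians of 2.89, 2.82 and 2.89 in signal and of 392, 405 and 391 bp in width. Place did differ: 37.3% of the peaks farther than 10 kb were intergenic, against 20.8% of those within 1 kb. A pool C peak stood within 1 kb on each side of 1002 of them (7.84%). The 5855 pool C peaks that were the nearest to such a peak within 1 kb had a median width of 815 bp and a median signal in their own list of 4.57, against 894 bp and 4.86 for all pool C peaks. At the edge of the rule, 38 peaks in neither list lay within 50 bp of a pool peak (smallest gap 2 bp, median width 443.5 bp), and 37 replicated peaks overlapped the pool peaks by 1 to 50 bp (smallest overlap 4 bp, median width 543 bp). Within the replicated list itself, the gap to the next peak had a median of 1418 bp, against 651 bp for the other replicated peaks. That gap was at most 1 kb for 45.2% of the peaks in neither list, against 54.1% of the others. The next peak was also in neither pool list for 16.6% against 12.8%.

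Places were assigned by the summit in GENCODE M21, with promoter meaning within 1 kb of any annotated transcription start site (TSS). Of the 12786, 7919 (61.9%) were in introns, 3066 (24.0%) intergenic, 1099 (8.60%, 95% interval 8.12 to 9.09) at promoters, 391 (3.06%) in UTRs or other exons of coding genes, 210 (1.64%) in coding exons and 101 (0.790%) in exons of non-coding genes. Of the other replicated peaks 25.9% were at promoters, 48.4% in introns and 21.1% intergenic. Seen from the place, 5.27% of all replicated promoter peaks were in neither pool list, against 17.7% of intron peaks and 16.0% of intergenic peaks. The median distance from the summit to the nearest TSS was 10795 bp, against 7065.5 bp for the others.

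The promoter difference was small among peaks of like signal. In the lowest signal band 8.06% of the peaks in neither list (7.54 to 8.61) and 8.97% of the others (8.44 to 9.52) were at promoters, with intron shares of 63.6% and 65.1% and intergenic shares of 22.8% and 20.3%. In the second band the promoter shares were 10.2% and 10.7%. Median TSS distances in the lowest band were 10848 and 10981.5 bp. In the third band, 18 of 73 peaks in neither list (24.7%, 16.2 to 35.6) were at promoters against 16.7% of the others. The peaks in neither list were far narrower there, with median widths of 321 and 1197 bp. Among third-band peaks under 400 bp the order turned, with 22.9% of 48 (13.3 to 36.5) against 30.6% of 843 (27.6 to 33.8) at promoters.

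**Figure D4:**
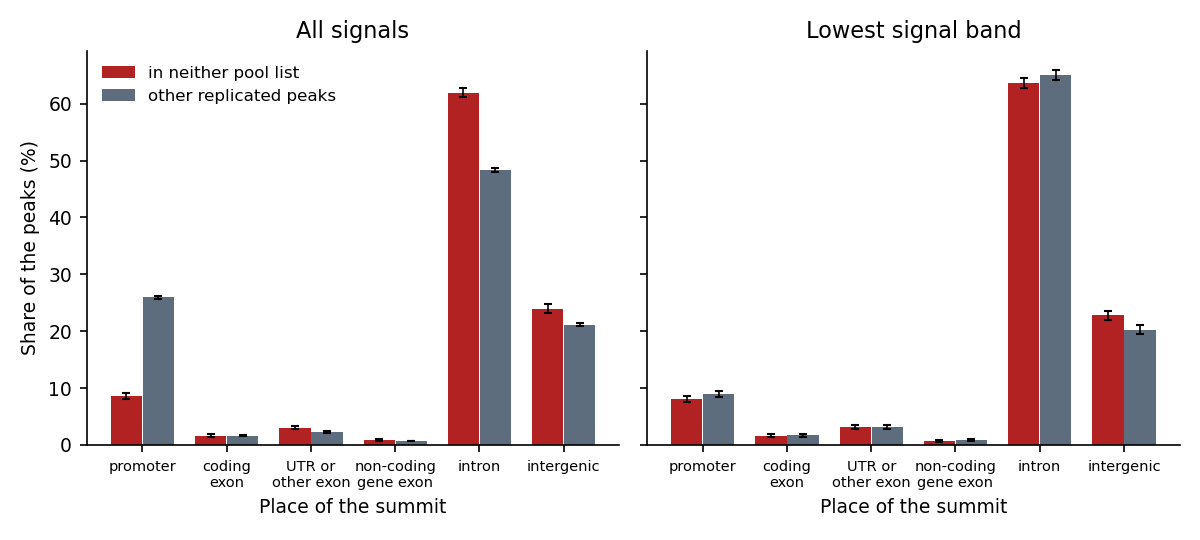
Share of peaks (vertical axis, %) by place of the summit, for replicated peaks in neither pool list (red) and all other replicated peaks (grey), with 95% Wilson intervals as error bars; left, all signals, and right, the lowest signal band. The promoter bars are 8.60% and 25.9% on the left and 8.06% and 8.97% on the right.

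The start sites under the 1099 promoter peaks were less often those of protein-coding genes, 67.7% against 84.4% for other replicated promoter peaks. Shares were higher for lincRNA (7.10% against 4.72%), antisense RNA (6.10% against 3.42%), unconfirmed transcripts of the TEC class (5.10% against 1.96%), microRNA (2.73% against 0.997%) and processed pseudogenes (4.55%, 50 peaks, against 1.12%). In the lowest signal band the shares came close: 67.7% against 70.9% protein-coding, 7.19% against 6.34% lincRNA and 4.21% against 4.19% processed pseudogene. Antisense genes overlap their partners, and this assay does not read strand, so a promoter peak there cannot be assigned to a strand.

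In base composition these peaks were close to the peaks with pool D only, and less rich in G and C than the peaks with both pools. The median G+C content of the 200 bp summit window was 46.0%, against 44.0% in windows 5 kb to either side and 50% at the other replicated peaks. By class it was 45.5% with pool D only, 48.0% with pool C only and 51.5% with both pools. The CpG ratio had medians of 0.181 at the summits, 0.165 and 0.168 in the windows 5 kb before and after, and 0.247 at the other peaks, of which those with pool D only had 0.185. Bases marked as repeats took a median of 10% of the window, against 14.5% on each side and 0 at the other peaks. By class that median was 10% with pool D only, 8.5% with pool C only and 0 with both pools. Windows over 50% repeat were 5.26%, against 5.11% with pool D only and 18.8% and 18.7% on the sides. At promoters the contrast was wider, with a median G+C of 49.0% and a CpG ratio of 0.250, against 60.0% and 0.638 at the other replicated promoter peaks, and a ratio of 0.6 or more in 12.1% against 53.7%. Among peaks of the lowest signal band the G+C medians were 45.5% in neither list and 46.0% in the others, and 0.179 and 0.186 for the CpG ratio. The repeat medians there were 10% and 9.5%.

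The letters of factor motifs were rarer, as common or more common than at the other peaks, depending on the motif. Each of 14 short motifs was searched on both strands of the summit windows, and a match is a description of letters and not a bound site. The GC box GGGGCGG, read by Sp and Klf factors, was in 1.06% of the windows, against 3.88% at the other peaks, 3.47% at all replicated peaks and 1.29% in the side windows. The EGR motif GTGGGCG was in 0.641%, against 2.00%, 1.80% and 0.661%. The E-box CAGCTG, a site of bHLH dimers, was in 11.99%, against 13.4% at the other peaks, 13.2% at all and 8.96% in the side windows. The AP-1 motif TGANTCA, the site of Fos and Jun dimers, was in 6.65% (6.23 to 7.09), against 5.28% at the other peaks, 5.48% at all and 6.25% in the side windows. The E-box CAGATG was in 16.8%, 15.5%, 15.7% and 15.1% in the same order, and the NFI motif TTGGCA in 11.5%, 10.9%, 10.9% and 9.90%. The TATA box TATAAAA was in 4.91%, 3.29%, 3.53% and 6.61%. The CCAAT box CCAAT, the NF-Y site, was in 22.9%, 19.8%, 20.2% and 25.4% in the order used above. The rarer motifs were in few windows, given here beside all replicated peaks: CRE (TGACGTCA) in 0.0939% against 0.139%, MEF2 (CTATTTATA) in 0.211% against 0.208%, SOX (ACAATGG) in 2.65% against 2.49%, and the RFX motif GTTGCCATG in 0.227% against 0.253%. PU.1 (GAGGAAGT) was in 1.35% against 1.20% and ETS (CCGGAAGT) in 0.258% against 0.307%, and these share their last 6 letters. Among peaks of the lowest signal band most of these differences shrank or turned over, while that of CAGCTG did not. There the GC box was in 0.829% of the peaks in neither list and 1.04% of the others, EGR in 0.619% and 0.733%, and TATA in 5.05% and 5.13%. In that band CAGATG was in 16.6% and 17.5%, NFI in 11.4% and 12.3%, CAGCTG in 11.6% and 13.0%, AP-1 in 6.65% and 6.22%, and CCAAT in 23.1% and 22.8%. Peaks with pool C only held the GC box in 1.41% and EGR in 1.11%, so they too were below the peaks with both pools, at 5.33% and 2.53%.

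The strongest of all, with a signal of 6.25 and a −log10 q of 24.7, was a 226 bp peak at the promoter of Camta1, a calmodulin-binding transcription activator, at chr4:151861516-151861741, 21 bp from a TSS. Pool C and pool D peaks lay 224 and 444 bp away. The next, with a signal of 5.78, was a 373 bp intergenic peak 10198 bp from the TSS of Prkcb, which encodes protein kinase C beta, at chr7:122643472-122643844. It had a pool C peak 109 bp and a pool D peak 494 bp away. Both thus stood close beside pool peaks without touching them.

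The third and the fourth peaks by signal, 5.44 and 5.09, were at start sites of the processed pseudogene Gm6475 (chr17:3313825-3314323), with Tiam2 as the nearest coding gene, and of Rps4l (chr6:148354662-148354958), a transcribed processed pseudogene within Tmtc1. They lay 12282 and 3810 bp from a pool C peak. Reads of a processed pseudogene can also match its parent gene, and how such reads were placed by the authors is not stated in the labels, so these values are uncertain. Further pseudogene start sites with such peaks were Gm19989 (4.40) and Gm2287 (4.03).

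At a signal of 5.09 stood a 252 bp peak 13791 bp from the TSS of Slc35f2, a solute carrier gene, 99 bp from a pool C peak. Signals of 4.86 were held by peaks at the promoter of Rimklb, an N-acetylaspartylglutamate synthetase gene (252 bp, outside the joint list), in a Sult2b1 intron 2142 bp from Lmtk3, a kinase gene, and in an intron of Klhl29. Their gaps to pool C were 251, 127 and 160 bp. The remaining 7 of the 15 strongest, at 4.63 to 4.79, lay nearest Abl2 (a tyrosine kinase), Mpp6 (a membrane scaffold protein), Kcnj6 (a subunit of G protein-gated potassium channels), Frmd4b, Jam3 (a junctional adhesion molecule), Fam174a and Snrpn (an imprinted gene of the splicing machinery). Only the Abl2 and Fam174a peaks among those 7 were more than 200 bp from a pool C peak, at 963 and 519 bp. Across the 73 peaks of the third signal band, 50 (68.5%) lay within 500 bp of a pool peak, against 36.6% in the lowest band and 42.1% in the second. Closer spacing at higher signal was not particular to these peaks. From the lowest to the third band, the median gap to the next replicated peak was 834, 716.5 and 453 bp for the other replicated peaks. For peaks in neither list it was 1462, 1299 and 317 bp.

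The widest of the peaks in neither list, 1787 bp with a signal of 3.35, lay in an exon of Elmsan1 3069 bp from Pnma1 (chr12:84150671-84152457), 528 bp from a pool C peak. A peak of 1781 bp in an intron of Ubr3, a ubiquitin ligase gene, had a signal of 2.43 and a pool C peak 1021 bp away, but no pool D peak within 77661 bp. The other 8, of 1437 to 1588 bp, included intron peaks of Trpm3 (a cation channel gene), Dlg5, Ppm1h and Epha4 (an ephrin receptor gene). The remaining 4 lay in other genes or far off, with Usp42, Crebrf, Phyhipl and Adra1d having the nearest coding TSS, at 9422, 18242, 39707 and 139420 bp. The peak in Dlg5, a scaffold protein gene, had the highest signal of the 10 widest, at 4.26. All 10 widest were in the joint list.

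A few peaks stood alone. The one farthest from any pool peak was intergenic, at chr17:93104294-93104619, 1644401 bp from pool C and 1644644 bp from pool D, with Adcyap1, which encodes the neuropeptide PACAP, as the nearest coding gene. The next was at the promoter of Gm3411 (chr14:6286940-6287518, signal 3.70), 1486171 bp from pool C. Intergenic peaks nearest Serpinb8, Lrrtm3 (a synaptic adhesion gene) and Pcdh9 (a protocadherin gene) lay 1058543, 773722 and 733557 bp from pool C, with signals of 2.55, 2.00 and 2.73. None of these 5 was in the joint list. The peaks farthest from any TSS lay within Ptprd (a receptor phosphatase gene), at 625192 and 512822 bp, between genes at 519389 bp (from Gm38269, with Brinp3 as the nearest coding gene at 648680 bp), in Dcc (the netrin receptor gene) at 486784 bp and in Gpc6 (a glypican gene) at 484264 bp. Their signals were 2.40 to 3.12. Not all of them were far from a pool peak: the Ptprd peak at 512822 bp lay 236 bp from pool C. The Ptprd and Dcc peaks were in the joint list.

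Of 21938 protein-coding genes, 13524 had a replicated peak overlapping the 1 kb on either side of a TSS, and 868 (3.96% of all coding genes) had one that was in neither pool list. For 709 of these 868 another replicated peak at the same promoters did overlap a pool peak. For the other 159, 1.18% of the genes with a promoter peak, every replicated promoter peak was in neither list. The strongest of those was at Aldh1b1, a mitochondrial aldehyde dehydrogenase gene, at chr4:45799121-45799415, with a signal of 4.51, 144 bp from the TSS and 20179 bp from pool C. Next came Pqlc3 and Kcne1l (an accessory subunit of potassium channels), both at 4.16, Omd (an extracellular matrix proteoglycan) at 3.98, and Dnaic2 (an axonemal dynein chain) and Psmb8 (an immunoproteasome subunit), both at 3.93. Ttll9 (a tubulin ligase family member) and Mrgprf had 2 such peaks each, with highest signals of 3.92 and 3.82. Cacng5, Mustn1, Foxd2, Vav1 (an exchange factor of blood cells), Ceacam1, Fbxo17 and Gm3411 had signals of 3.70 to 3.82. The gaps of these to pool C ran from 245 bp at Mustn1 to 48860 bp at Foxd2, a forkhead factor gene, leaving out Gm3411. Several of these genes are known from blood cells, cilia, matrix or other tissues, and the files give no expression value for them.

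By nearest coding TSS, 5697 coding genes (26.0%) had at least 1 of the peaks assigned. Celf2, an RNA-binding splicing regulator, had the most, 44 of its 283 replicated peaks (15.5%), and Rbfox1, a neuronal splicing factor, had 37 of 188 (19.7%). Next were Dlg2 (the scaffold PSD-93) with 30 of 153, Ppp3ca (the catalytic subunit of calcineurin) with 29 of 139 and Tenm2 (a teneurin) with 27 of 130. Further, Ryr2 (the intracellular calcium release channel) had 23 of 82, Opcml and Lsamp (IgLON adhesion proteins) 23 of 81 and 22 of 109, and Dlgap1 (a postsynaptic scaffold) 22 of 153. These are long genes, from 268 kb at Ppp3ca to 2197 kb at Lsamp. Of the 23 Opcml peaks 21 were in introns, with signals from 1.69 to 3.35 and widths from 211 to 965 bp over all 23, and 11 of them lay within 1 kb of a pool peak. At Ppp3ca 25 of 29 lay within 1 kb of a pool peak, with a median gap to pool C of 348 bp, while at Lsamp 8 of 22 did, with a median gap of 8604.5 bp. Among intron peaks only, 17.6% in host genes under 50 kb were in neither list. The share was 17.7% at 50 to 200 kb, 17.6% at 200 to 500 kb and 18.8% at 500 kb or more. These values leave out promoter peaks, of which 5.27% were in neither list, while the counts per gene include them. Whether gene length goes with the counts per gene was not tested.

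Among 21 gene lists, the share of assigned replicated peaks in neither pool list was compared with 14.4% over all replicated peaks. Peaks of 1 gene share a locus and are not independent, so the intervals cover counting error only. The highest share among lists with over 100 peaks was at genes of neuronal adhesion and axon guidance, 247 of 1179 (21.0%, 18.7 to 23.4), among them Tenm2, Opcml and Lsamp with the counts above. Potassium and calcium channel genes had 138 of 730 (18.9%, 16.2 to 21.9), led by Ryr2, then Cacna1e and Cacna1c, which encode pore subunits of voltage-gated calcium channels, with 17 and 16. Oligodendrocyte genes had 15 of 187 (8.02%, 4.92 to 12.8), with Fa2h, a fatty acid hydroxylase of myelin lipids, at 4 and Sox10 and Tspan2 at 2 each.

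The excitatory, granule, pyramidal and interneuron lists ran from 13.1% to 18.1%, against 14.4% of the whole list. The 95% interval of each included that share. Excitatory neuron genes had 124 of 943 (13.1%), with Rbfox1 at 37 and the NMDA receptor genes Grin2a and Grin2b at 16 each. Dentate granule cell genes had 58 of 349 (16.6%), led by Glis3 with 12, then Stxbp6 and Maml2. CA field pyramidal cell genes had 35 of 193 (18.1%), with the kainate receptor gene Grik4 at 8, Man1a at 7 and the mineralocorticoid receptor gene Nr3c2 at 6. Interneuron genes had 17 of 95 (17.9%), with Sox6 at 5, Erbb4 at 3 and Dlx2 at 2. Postsynaptic genes had 94 of 667 (14.1%), with Dlg2, Dlgap1 and Dlgap2 leading, and synaptic vesicle genes 39 of 313 (12.5%), with the calcium sensor Syt1 at 9.

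Of other cell types, astrocyte genes had 54 of 317 (17.0%), with the bicarbonate transporter Slc4a4 at 19 of 67, Sox9 at 10 and the connexin gene Gja1 at 7. Oligodendrocyte precursor genes had 15 of 107, with Tnr at 10, microglia genes 11 of 93, with Sall1 at 4 and Ptprc at 3, and endothelial and mural genes 18 of 100, with Kdr and Sox17 at 3 each. Choroid plexus and ependymal genes had 6 of 23, neural stem and newborn neuron genes 9 of 89 and immediate early genes 25 of 218 (11.5%), the last led by Dusp6 with 6 and Nr4a3 with 5. Housekeeping genes had 10 of 80, liver genes 6 of 40 (all at Apoh), male germ cell genes 2 of 27, skeletal muscle genes 2 of 26 and Hox genes 0 of 1. The liver, germ cell and muscle lists thus held few replicated peaks, but so did the choroid plexus and ependymal list, with 23. Of the 40 liver peaks, 26 were at Apoh.

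At like signal some lists came nearer to the share of the whole list and others did not. Of replicated peaks in the lowest signal band, 47.9% of the whole list were in neither pool list, as were 207 of 414 (50%, 45.2 to 54.8) at adhesion and axon guidance genes and 109 of 206 (52.9%, 46.1 to 59.6) at channel genes. Adhesion genes had more of their peaks in that band, 35.1% against 23.5% of the whole list, and oligodendrocyte genes fewer, 16.0%. In that band 10 of 30 peaks of oligodendrocyte genes (33.3%, 19.2 to 51.2) were in neither pool list, an interval that includes the share of the whole list. Excitatory neuron genes had 101 of 257 (39.3%, 33.5 to 45.4) and synaptic vesicle genes 32 of 87 (36.8%, 27.4 to 47.3) there. Both intervals lay below the share of the whole list, that of vesicle genes only just. They cover counting error only, were picked out among 21 lists, and peak width was not matched. The excitatory neuron and vesicle lists are not separate cases, since Syt1 and Snap25, with 85 and 29 replicated peaks, are in both.

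**Figure D5:**
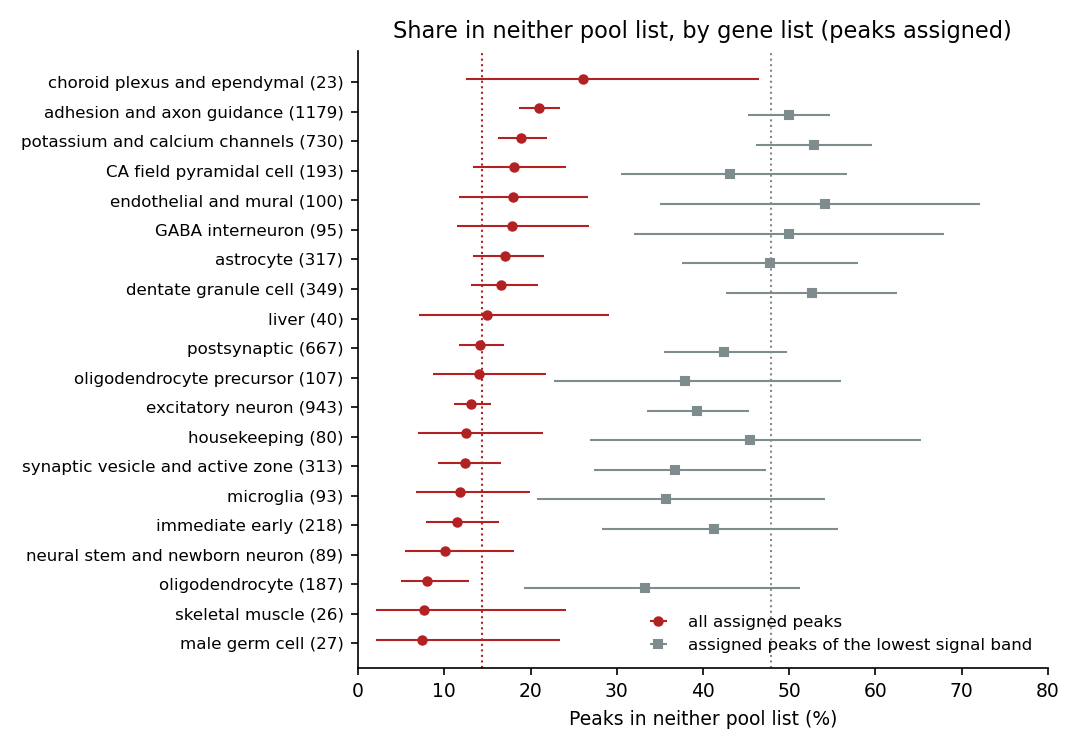
Share of replicated peaks in neither pool list (horizontal axis, %, with 95% Wilson intervals) for gene lists with at least 20 assigned peaks, whose number is in parentheses; red circles are all assigned peaks, grey squares those of the lowest signal band where there are at least 20, and dotted lines the shares over all replicated peaks, 14.4% and 47.9%. Adhesion genes lie at 21.0% and 50%, and excitatory neuron genes at 13.1% and 39.3%.

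At 3 listed genes the only replicated promoter peak was one of these. Slc17a6, the vesicular glutamate transporter VGLUT2, had 1 peak of 432 bp with a signal of 2.60, 98 bp from the TSS and 39737 bp from pool C (chr7:51622122-51622553). Cacng5, an auxiliary subunit of AMPA receptors, had 1 of 511 bp with a signal of 3.82, 133 bp from the TSS and 2400 bp from pool C (chr11:107914812-107915322). Dlx5, a homeobox gene of interneuron precursors, had 1 of 289 bp with a signal of 3.12, 942 bp from the TSS and 16238 bp from pool C (chr6:6881001-6881289). None of the 3 was in the joint list.

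Enhancers from the VISTA collection, which were tested in transgenic mouse embryos, served as an outside annotation through RefSeq. Of 620 such elements, 283 overlapped a replicated peak, 40 overlapped one in neither pool list, and 29 overlapped no other replicated peak. Forebrain activity was recorded for 7 of those 40 (all 7 among the 29), for 86 of the 283 and for 167 of the 620. Of the peaks in neither list, 0.313% (0.230 to 0.426) overlapped an element, against 0.390% (0.348 to 0.437) of the others. Among the 29, the forebrain element mm7 (chr14:61004739-61005741) held a Tnfrsf19 intron peak with a signal of 3.24, 1898 bp from pool C. The forebrain element mm1730 (chr4:140102870-140105694) held an intron peak of 3.67 with Klhdc7a as the nearest coding gene, 2764 bp from pool C. Elements with recorded heart activity, such as mm1650 (nearest coding gene Rxfp1, 3.70) and mm280 (Tmcc3, 3.70), were also among them.

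By chromosome, the share of replicated peaks in neither pool list ran from 12.7% on chromosome 11 to 15.9% on chromosome 1 among autosomes. On the X chromosome it was 153 of 1329 (11.5%, 9.91 to 13.3), and on the Y chromosome 0 of 5.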

How the data were processed

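H3K27ac ChIP-seq peaks came from 4 samples, 2 technical replicates of each of 2 pools of 7 biosamples, in 1 group. The authors deposited 4 narrowPeak lists on build mm10, per the labels. Neither an aligner nor a peak caller is named in the labels or file headers. In each deposited list the signal, the −log10 q, a display score (not used in any result) and the summit offset are the authors' values for each peak, and they were compared only between peaks of the same list. Depth is unknown.

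The peaks described, the gene lists and the named-gene rule were chosen with earlier results of these data known. Support by a pool meant an overlap of 1 bp. Gaps are between peak edges. Places, TSSs and genes came from GENCODE M21, and sequence, repeat marks and VISTA elements from RefSeq's GRCm38 records. Peaks were assigned to the coding gene with the TSS nearest the summit. Signal bands are quartiles of the replicated list. Flanking windows of 200 bp lay 5 kb to either side. The motifs numbered 14. Wilson and order-statistic intervals (95%) cover counting only, and the interval code was tested on simulated data. No significance test was made, since the lists give 1 value per peak, all come from the same reads, and neighbouring peaks are not replicates.

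Named genes were coding genes of the 15 strongest and 10 widest peaks, the 15 strongest of genes with such promoter peaks only, the 10 genes with the most peaks, up to 3 per gene list, and the 5 peaks farthest from a pool peak and from a TSS. Gm19989, Gm2287, Tnfrsf19, Klhdc7a, Rxfp1, Tmcc3, Slc17a6, Dlx5, Clasp2 and Fgfr1op are outside that rule and were chosen after their values were seen, and 1 gene within it is not reported here. Alternatives changed the overlap, the thresholds of the replicated and pool lists, the pools used, the TSS window and the sequence window. Tables were made in Python 3.11.15 with pandas 2.3.3 and numpy 2.4.6, intervals with scipy 1.17.1 and plots with matplotlib 3.10.9. Strain differences from the reference were not analysed here.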

Additional observations from a re-analysis of the deposited data

How the results depend on the processing

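How many replicated peaks were in neither pool list depended on the thresholds. The count of 12786 became 5878 with replicated peaks of −log10 q of 5 or more, 73 at or above the median signal, 20171 when only pool peaks of −log10 q of 5 or more counted, and 7264 within the joint list. With 1 pool left out it ran from 14118 (without pool D) to 39577 (without pool C). The promoter share of 8.60% became 7.89% when pool peaks within 200 bp counted as support, 9.49% at −log10 q of 5 or more and 24.7% at or above the median signal. It was 5.30% and 18.7% with TSS windows of 500 bp and 2.5 kb, and 6.08% with coding TSSs only, and ran from 8.64% to 10.5% with 1 pool left out. The median gap to pool C of 1204.5 bp became 929.5 bp with an overlap of 50% required, 2376 bp with the 200 bp allowance, 1081.5 bp at −log10 q of 5 or more, 238 bp at or above the median signal and 1979 bp with pool peaks of −log10 q of 5 or more. It was 1213.5 bp without pool D and has no value without pool C. The share in the joint list, 56.8%, became 59.7%, 69.4%, 89.0% and 69.2% with the overlap of 50%, replicated peaks of −log10 q of 5 or more, the median signal and pool peaks of −log10 q of 5 or more, and ran from 60.2% to 83.0% with 1 pool left out. The median G+C content of 46.0% was 47.0% and 50% under the thresholds on −log10 q and on signal of the replicated list, 45.5% over whole peaks, and ran from 46.0% to 47.5% with 1 pool left out. No paired analysis was possible because the results come from no test. Depth is unknown, so how far it limits the pool lists was not tested.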
